A study of Mus musculus with 12 samples.

Results

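Genes of cholesterol synthesis, uptake, efflux and control were examined in C2C12 myotubes exposed to BAM15, a mitochondrial protonophore that lets protons re-enter the matrix without making ATP. The 31 genes were taken by symbol from a deposited table of 15113 genes. They comprise 19 enzymes of the synthesis pathway, 4 genes of its transcriptional control, 5 genes of sterol uptake and transport inside the cell, and 3 genes of the liver X receptor (LXR) and of efflux. C2C12 is an established mouse myoblast line whose cells fuse into multinucleated myotubes once serum is reduced, and all libraries came from this 1 line. After differentiation, the cultures received 20 μM BAM15 dissolved in DMSO, or DMSO alone as vehicle, for 16 h. RNA of 6 libraries per condition was sequenced. The labels do not say whether the libraries of a condition came from separate cultures, so p-values measure the spread between these libraries only. Both conditions thus shared the DMSO, and the labels name no genetic change.

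Cells make cholesterol from acetyl-CoA through the mevalonate pathway, which first builds isoprenoid units and then joins them into squalene, the first dedicated sterol precursor. Squalene is closed into lanosterol, and a series of enzymes in the endoplasmic reticulum trims lanosterol to cholesterol. The transcription factor SREBP2, encoded by Srebf2, controls most of these genes. When membrane sterol is low, SCAP escorts SREBP2 to the Golgi for cleavage, and when sterol is high, the INSIG proteins hold SCAP and SREBP2 back. LXR responds to oxidised sterols and turns on efflux pumps such as ABCA1 and ABCG1. In muscle, cholesterol is a component of the plasma membrane and of the transverse tubules.

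Promoters of 25 of the 31 genes were found among RefSeq sequences of build GRCm38.p6, each covering 250 bases before to 50 bases after the first listed start of the gene. The motifs searched on both strands were TCACNCCAC, the core of the sterol regulatory element that SREBP binds, CCAAT, bound by the SREBP partner NF-Y, and CACGTG, the E-box that SREBP proteins and other factors bind. A longer 10-letter form of the sterol regulatory element contains the shorter one and was found in 0 of the 25 promoters, against 0.0851% of the 27025 promoters in the table, taken as 1 per gene. TCACNCCAC was found in 1 of the 25, against 330 of the 27025 promoters. CCAAT was found in 20 of the 25 (80.0%) and in 14 of the 16 synthesis promoters (87.5%), against 37.9% of all promoters. Among the 18 promoters of genes that were lower after BAM15, 16 held CCAAT, and among the 7 others 4 did. CACGTG was found in 5 of the 25 (20.0%), against 7.24% of all. A match describes letters only and is not a measured binding site. The last 150 bases before the start are shown for 6 genes, 5′ to 3′ on the strand of the gene, with matches in capitals (ATTGG is CCAAT on the other strand). Hmgcs1 is shown as the only promoter with TCACNCCAC, at −137, Mvk for the largest number of CCAAT matches, Hsd17b7 and Acat2 as the promoters of the most reduced late and early enzymes, and Insig1 and Insig2 as a pair of related genes that changed in opposite directions.
Hmgcs1 (chr13:119690201-119690350, plus strand): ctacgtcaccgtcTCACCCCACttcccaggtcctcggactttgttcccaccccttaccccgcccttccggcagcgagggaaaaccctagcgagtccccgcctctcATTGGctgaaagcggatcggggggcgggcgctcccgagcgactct
Mvk (chr5:114444119-114444268, plus strand): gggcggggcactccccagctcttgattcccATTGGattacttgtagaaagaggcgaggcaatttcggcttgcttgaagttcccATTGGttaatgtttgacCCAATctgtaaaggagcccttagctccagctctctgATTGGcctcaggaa
Hsd17b7 (chr1:169969206-169969355, minus strand): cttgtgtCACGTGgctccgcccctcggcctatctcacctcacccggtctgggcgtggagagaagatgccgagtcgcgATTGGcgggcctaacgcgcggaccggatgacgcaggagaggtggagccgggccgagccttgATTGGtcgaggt
Acat2 (chr17:12960726-12960875, minus strand): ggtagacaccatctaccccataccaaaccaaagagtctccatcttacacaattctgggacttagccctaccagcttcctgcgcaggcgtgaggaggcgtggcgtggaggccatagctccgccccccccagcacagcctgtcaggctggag
Insig1 (chr5:28071262-28071411, plus strand): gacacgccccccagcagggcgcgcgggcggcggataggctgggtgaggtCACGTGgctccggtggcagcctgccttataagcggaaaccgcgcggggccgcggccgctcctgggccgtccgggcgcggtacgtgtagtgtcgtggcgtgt
Insig2 (chr1:121332590-121332739, minus strand): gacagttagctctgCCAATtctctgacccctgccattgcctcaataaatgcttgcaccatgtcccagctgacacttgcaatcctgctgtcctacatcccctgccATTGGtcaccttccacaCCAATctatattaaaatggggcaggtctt
The Acat2 stretch holds none of the motifs. In the Insig1 promoter a CCAAT match lies further upstream, at −216. GENCODE places the first base of Insig1 49 bases, of Hsd17b7 36 bases and of Acat2 22 bases upstream of the RefSeq start, so the end of these stretches lies within GENCODE transcripts.

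Between 13983725 and 18866728 reads per library were counted on genes. Libraries were made by 3′ end sequencing, in which a transcript gives reads near its poly(A) tail, and values are given as normalized counts (counts scaled by the TMM method to the mean library). Genes passed the test at an adjusted p-value below 0.01. Within the BAM15 condition the libraries numbered 1 to 3 lay at one side of the first principal component and those numbered 4 to 6 at the other, and this component held 76.6% of the variance of those 6 libraries. Results are therefore also given within each set of numbers. All 12 myotube markers were detected, with summed normalized counts of 420620 to 554677 after BAM15 and 460210 to 514919 with vehicle. Of the 12, 4 fell (Mymk, Ckm, Mb and Mylpf) and 2 rose (Myog and Acta1), beside 20.3% and 22.0% of all tested genes. Within numbers 1 to 3, 0 of the 12 fell and 2 rose, against 22.2% and 22.2% of all genes tested there. Within numbers 4 to 6, 5 fell and 2 rose, against 16.7% and 16.5%. Ckm passed in neither set alone (adjusted p = 0.0146 and 0.0523, edgeR). Mymk, Mb, Mylpf and Myog passed only within numbers 4 to 6, as did Des and Tnnt3, which were lower there. Myh3 rose only within numbers 1 to 3. Acta1, with the most counts, rose from a mean of 127951 to 175769. After BAM15 the sums were 516066 to 554677 within numbers 1 to 3 and 420620 to 463739 within numbers 4 to 6. With vehicle they were 460210 to 514919 and 474820 to 498209. Markers of proliferating or undifferentiated myoblasts were present too. Of these 6 genes, 5 fell (Mki67, Top2a, Ccnb1, Cdk1 and Pax7) and Myf5 rose, beside 20.3% and 22.0% of all tested genes, and none was at 0. The same calls were made within each number set. Within numbers 1 to 3 and 4 to 6, log2 fold changes were 1.00 and 2.06 for Myf5, and −2.17 and −1.03 for Cdk1. The sum of the 6 genes was 2258 to 2834 after BAM15 and 5180 to 6072 with vehicle. Of 5 macrophage markers, 3 were analysed, and their sum was 61.9 to 89.7 against 16.2 to 32.5. Of these 3, Cd68 rose by 2.22 on the log2 scale, from a mean of 13.7 to 64.2 normalized counts, and Csf1r (7.48 and 5.67) and Lyz2 (2.64 and 1.40) were too low to test. The other macrophage markers, Ptprc and Adgre1, were not among the genes analysed, nor was any adipocyte, hepatocyte or endothelial marker. The part of these markers in the changes of the cholesterol genes was not tested. In RNA from whole cultures, fewer cells of a type and less RNA per cell cannot be told apart.

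All 31 genes had enough counts to be tested. After BAM15, 22 of them fell and 3 rose (Insig2, Npc1 and Soat1), while 6 did not pass. Over the 12730 tested genes, 20.3% fell and 22.0% rose by the same criterion. The median log2 fold change of the 31 genes was −0.81, against 0.0237 over all tested genes. In 22 genes every BAM15 library lay below every vehicle library, and in 2 genes every BAM15 library lay above, compared with 17.0% and 17.1% of all tested genes. When the mean also had to exceed 50 normalized counts and the change 2-fold, 11 genes were lower and 1 was higher, against 3.58% and 3.70% of all tested genes. Npc1 was the 1 higher gene. The 11 lower genes were 10 enzymes of synthesis and Stard4.

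**Figure D1:**
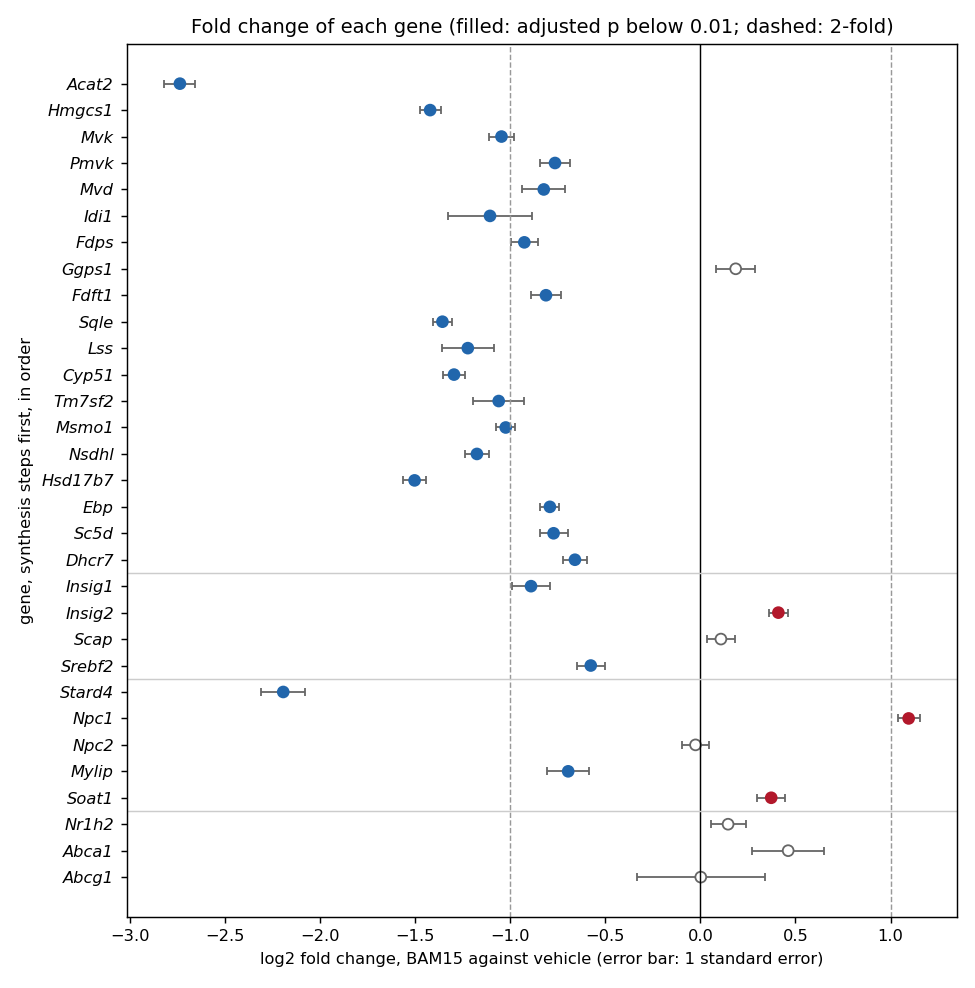
Log2 fold change (BAM15 against vehicle, x axis) of the 31 genes, with synthesis enzymes in pathway order at the top and error bars of 1 standard error. Filled points have an adjusted p-value below 0.01, and 18 of the 19 synthesis enzymes lie to the left, with Acat2 at −2.74.

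The decrease ran through nearly all synthesis enzymes examined here. Of the 19 enzymes, 18 fell, from the first of them in pathway order to the last, and Ggps1 did not pass. Their median log2 fold change was −1.05. Summed over the 19 genes, normalized counts were 13930 to 15314 in the BAM15 libraries (median 14811) and 31454 to 33423 in the vehicle libraries (median 32351), and the ranges did not overlap. These genes took 0.0853% ± 0.00214 (SD, n = 6) of all counts after BAM15 and 0.196% ± 0.00500 (SD, n = 6) with vehicle.

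The first enzymes join acetyl units and make mevalonate. Acat2 (chromosome 17, 12942890 to 12960747), the cytosolic thiolase that condenses a pair of acetyl-CoA molecules, showed the largest decrease of all 31 genes. Its normalized counts were 1609, 1665 and 1885 (lowest, median and highest) with vehicle and 213, 270 and 283 after BAM15. The groups did not overlap, and the mean fell 6.66-fold, from 1723 ± 124 to 258 ± 29.2 (log2 fold change −2.74, standard error 0.082, adjusted p = 9.44e-13, edgeR). Hmgcs1 (chromosome 13, 119690379 to 119708260) encodes the synthase that makes HMG-CoA, and its promoter holds the TCACNCCAC match shown above. It ranged from 6548 to 7486 (median 7096) with vehicle and from 2358 to 2840 (median 2667) after BAM15. The groups did not overlap, and on the log2 scale Hmgcs1 fell by 1.42 (standard error 0.055, adjusted p = 1.92e-11, edgeR).

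The next 3 enzymes phosphorylate and decarboxylate mevalonate, and all 3 fell. Mvk, mevalonate kinase, fell from 480 ± 14.6 to 232 ± 17.8 normalized counts (log2 fold change −1.05). Pmvk, phosphomevalonate kinase, fell from 595 ± 52.4 to 350 ± 30.6 (log2 fold change −0.76). Mvd, the decarboxylase that releases isopentenyl diphosphate, fell from 1166 ± 150 to 659 ± 113 (log2 fold change −0.82). Adjusted p-values of these 3 genes ranged from 3.89e-09 (Mvk) to 1.85e-05 (Mvd), and in each of them all 6 BAM15 libraries lay below all 6 vehicle libraries.

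The next enzymes build longer isoprenoids, and 3 of these 4 fell. Idi1, which isomerises isopentenyl diphosphate, had few counts, with 17.2, 27.7 and 29.8 normalized counts (lowest, median and highest) for vehicle and 7.003, 11.97 and 16.02 after BAM15. The groups did not overlap, and the log2 fold change was −1.11 with a standard error of 0.22, the widest of the 18 enzymes that fell (adjusted p = 5.93e-04, edgeR). Its mean of 18.8 was below the threshold of 50. Fdps, farnesyl diphosphate synthase, fell from 1397 ± 109 to 736 ± 64.5 (log2 fold change −0.93, adjusted p = 4.18e-08).

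Ggps1 makes geranylgeranyl diphosphate, which serves protein prenylation and lies on a branch away from sterols. It had 240, 254 and 310 normalized counts with vehicle and 229, 313 and 341 after BAM15 (lowest, median and highest). The groups overlapped, and the call was not made at a log2 fold change of 0.19 with a standard error of 0.10 (adjusted p = 0.139, edgeR). Fdft1, squalene synthase, the first enzyme committed to sterols, fell from 920 ± 72.0 to 524 ± 58.6 (log2 fold change −0.81, adjusted p = 4.77e-07).

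Squalene is then oxidised and closed into a ring. Sqle (chromosome 15, 59315077 to 59331192), squalene epoxidase, a rate-limiting enzyme of the sterol branch, ranged from 1889 to 2123 (median 1905) with vehicle and from 715 to 786 (median 766) after BAM15. The BAM15 libraries varied little, with a coefficient of variation of 3.46%, the smallest among the 31 genes in that condition. The groups did not overlap, and the log2 fold change was −1.36 (standard error 0.050, adjusted p = 9.98e-12, edgeR). Lss, lanosterol synthase, varied more after BAM15 (coefficient of variation 26.1%), with 117, 147 and 221 normalized counts (lowest, median and highest) against 337, 350 and 402 for vehicle. Its log2 fold change was −1.223 (standard error 0.14, adjusted p = 2.61e-06, edgeR), and the groups did not overlap.

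The remaining 8 enzymes convert lanosterol to cholesterol, and all 8 fell. The largest decreases were in Hsd17b7 and Cyp51. Hsd17b7 (chromosome 1, 169949535 to 169969241), a 3-ketosteroid reductase that acts after each demethylation at carbon 4, had 793 to 892 normalized counts with vehicle (median 864) and 285 to 345 after BAM15 (median 295), and fell by 1.503 on the log2 scale (standard error 0.063, adjusted p = 4.06e-11, edgeR). Cyp51, the lanosterol 14-demethylase, had 4735 to 5307 with vehicle (median 5081) and 1787 to 2236 after BAM15 (median 2098), and fell by 1.30 on the log2 scale (standard error 0.059, adjusted p = 1.08e-10, edgeR). Neither enzyme had overlapping groups.

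Enzymes that remove the methyl groups at carbon 4 also fell. Msmo1, the methyl oxidase, fell from 2912 ± 63.2 to 1432 ± 91.2 (log2 fold change −1.02), and Nsdhl, the decarboxylating dehydrogenase, from 1309 ± 74.5 to 580 ± 39.8 (log2 fold change −1.17). Tm7sf2, a sterol 14-reductase, had the lowest counts of the ring-modifying enzymes and fell from 105 ± 12.1 to 50.2 ± 9.72 (log2 fold change −1.06). The last 3 enzymes fell by less than 2-fold. Ebp, the sterol isomerase, had a log2 fold change of −0.79, Sc5d, the desaturase, of −0.77, and Dhcr7, the reductase of 7-dehydrocholesterol, of −0.66, the smallest decrease among the 18 enzymes. Adjusted p-values of these 6 genes ranged from 3.14e-10 (Msmo1) to 8.93e-06 (Tm7sf2), and their groups did not overlap.

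**Figure D2:**
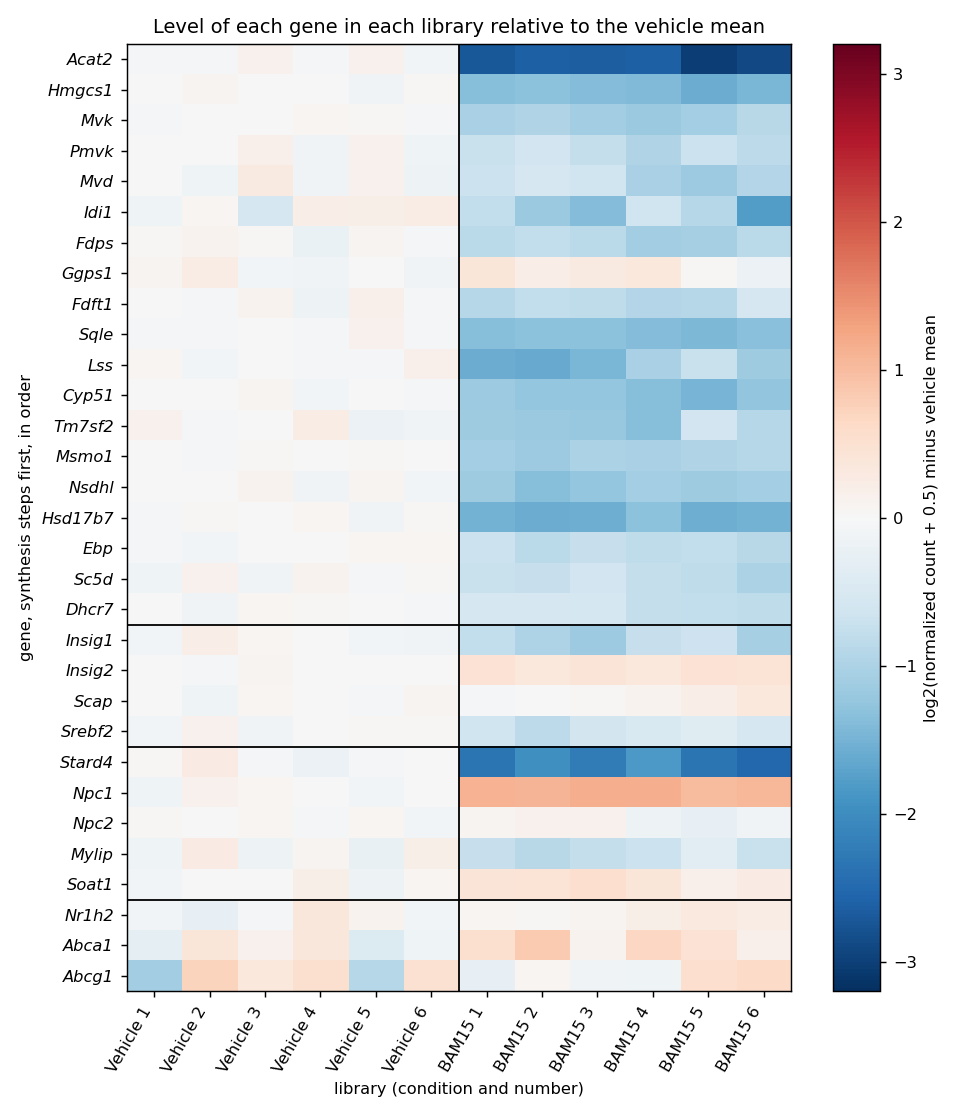
Level of each of the 31 genes (rows, pathway order) in each of the 12 libraries (columns), as log2(normalized count + 0.5) minus the vehicle mean of that gene. The synthesis rows are blue in all 6 BAM15 columns except Ggps1, which is pale, and the row of Npc1 is red in all 6.

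The genes that control SREBP2 moved apart. Insig1 and Insig2 encode related proteins that retain SCAP in the endoplasmic reticulum, and Insig1 is itself an SREBP target. Insig1 (chromosome 5, 28071363 to 28078662) had 258, 273 and 327 normalized counts with vehicle and 126, 152 and 177 after BAM15 (lowest, median and highest). It fell by 0.89 on the log2 scale (standard error 0.099, adjusted p = 2.18e-06, edgeR). Insig2 (chromosome 1, 121304353 to 121332589) had 880, 916 and 977 with vehicle and 1161, 1239 and 1281 after BAM15, with no overlap. It rose by 0.41 (standard error 0.049, adjusted p = 4.60e-06, edgeR), which is 1.33-fold.

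Srebf2 itself (chromosome 15, 82147181 to 82205379) ranged from 1672 to 1978 normalized counts with vehicle (median 1815) and from 1011 to 1389 after BAM15 (median 1215). The ranges did not overlap, and the log2 fold change was −0.58 (standard error 0.072, adjusted p = 8.07e-06, edgeR), a decrease of 1.49-fold. Scap had 551 to 653 with vehicle and 582 to 773 after BAM15. These ranges overlapped, and at 0.11 on the log2 scale (standard error 0.074) the difference was not called (adjusted p = 0.235, edgeR).

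Genes of sterol uptake and transport changed in both directions. Stard4, a cytosolic sterol carrier and an SREBP2 target, showed the second largest decrease of the 31 genes. It had 526, 599 and 723 normalized counts with vehicle and 106, 123 and 170 after BAM15 (lowest, median and highest). With no overlap, it fell 4.57-fold (log2 fold change −2.19, standard error 0.11, adjusted p = 5.12e-10, edgeR). Npc1 (chromosome 18, 12189692 to 12236400), the membrane protein that exports cholesterol from late endosomes and lysosomes, rose instead. It had 539, 597 and 653 with vehicle and 1189, 1271 and 1336 after BAM15. The lowest BAM15 library thus lay above the highest vehicle library, and the rise was 2.14-fold (log2 fold change 1.10, standard error 0.058, adjusted p = 5.98e-10, edgeR).

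Npc2, the soluble lysosomal protein that hands cholesterol to NPC1, did not pass. It ranged from 13012 to 14452 normalized counts with vehicle and from 11591 to 15330 after BAM15, so the BAM15 libraries spanned the vehicle range (log2 fold change −0.0254, adjusted p = 0.791, edgeR). Mylip encodes IDOL, a ubiquitin ligase that degrades lipoprotein receptors and whose gene is an LXR target. It fell from 234 ± 33.9 to 144 ± 18.9 (log2 fold change −0.69, adjusted p = 9.11e-05, edgeR) with no overlap. Soat1, which esterifies cholesterol for storage, had 842, 925 and 1068 with vehicle and 1054, 1236 and 1369 after BAM15 (lowest, median and highest). The highest vehicle library lay just above the lowest BAM15 library. The increase of 0.37 on the log2 scale passed (standard error 0.073, adjusted p = 5.38e-04, edgeR).

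None of the 3 LXR and efflux genes passed. Nr1h2, which encodes LXRβ, had 574 ± 86.0 normalized counts with vehicle and 635 ± 50.3 after BAM15 (log2 fold change 0.15, standard error 0.092, adjusted p = 0.198). Abca1, the pump that loads cholesterol onto apolipoproteins, had low counts of 19.6, 27.0 and 35.1 with vehicle and 29.1, 38.2 and 48.6 after BAM15 (lowest, median and highest). The ranges overlapped, and the log2 fold change of 0.46 had a standard error of 0.19 (adjusted p = 0.0502, edgeR). Abcg1, the partner pump, was lower still, at 3.52 to 13.8 with vehicle and 6.80 to 12.8 after BAM15. At this depth its change (0.00225 on the log2 scale, standard error 0.34, adjusted p = 0.996) could not be resolved.

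**Figure D3:**
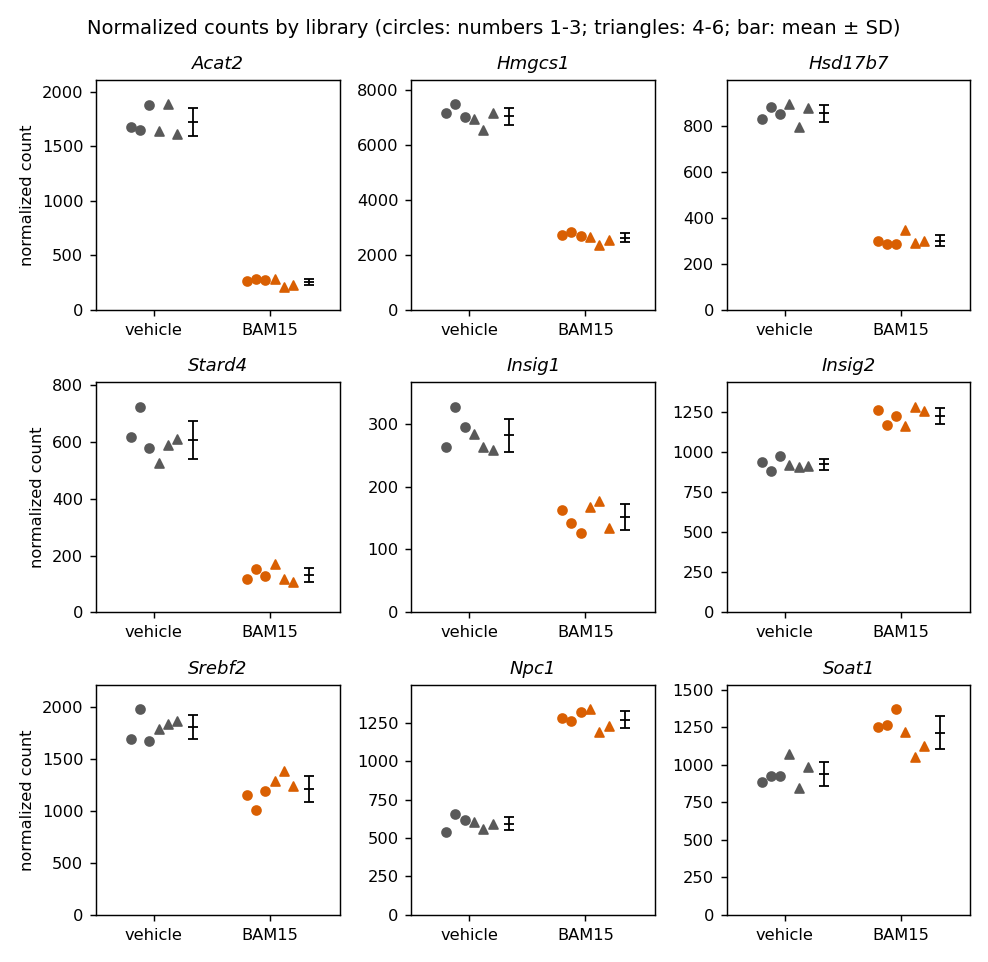
Normalized counts (y axis, from 0) of 9 genes in the 12 libraries, with circles for libraries numbered 1 to 3, triangles for those numbered 4 to 6, and a bar for the mean ± SD of 6 libraries. Only for Soat1 do the vehicle and BAM15 points share a range, between 1054 and 1068.

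The counts were then taken within each set of library numbers. Within numbers 1 to 3, 21 genes fell and 3 rose, against 22.2% and 22.2% of all genes tested there. Within numbers 4 to 6, 22 fell and 2 rose, against 16.7% and 16.5% of all genes tested there. The median log2 fold change of the 31 genes was −0.82 within numbers 1 to 3, without Abcg1, which had too few counts there, and −0.88 within numbers 4 to 6. Idi1 passed within numbers 4 to 6 (log2 fold change −1.27, adjusted p = 0.0075) and not within numbers 1 to 3 (−0.93, adjusted p = 0.025), and Soat1 passed within numbers 1 to 3 (0.50, adjusted p = 2.5e-06) and not within numbers 4 to 6 (0.22, adjusted p = 0.084). The difference between the sets was not tested. Lss had log2 fold changes of −1.54 and −0.97, and Mvd of −0.68 and −1.02. Acat2 (−2.67 and −2.83), Stard4 (−2.26 and −2.13) and Npc1 (1.09 in both) had similar values. Across the 31 genes the coefficient of variation between libraries ranged from 2.17% (Msmo1) to 47.0% (Abcg1) with vehicle and from 3.46% (Sqle) to 28.6% (Idi1) after BAM15.

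**Figure D4:**
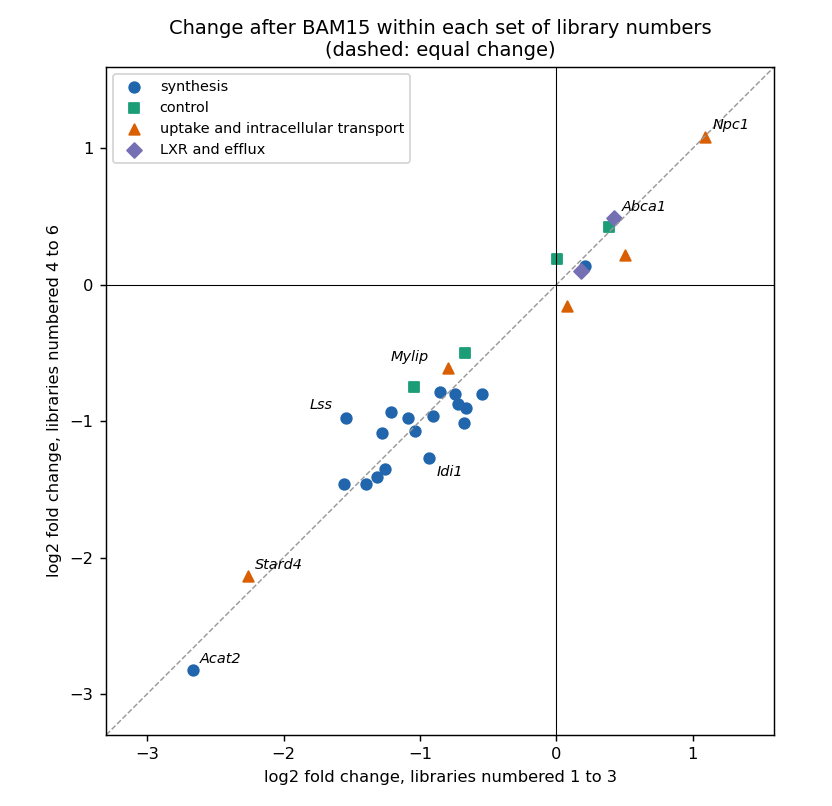
Log2 fold change within libraries numbered 1 to 3 (x axis) against that within libraries numbered 4 to 6 (y axis) for 30 genes, coloured by role, with a dashed line of equal change. Abcg1 is not drawn, and of the labelled genes Lss lies farthest from the line, at −1.54 and −0.97.

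Further genes that touch the pathway were examined from 5 lists, with 57 genes in all, of which 53 could be tested. Of these, 16 fell and 13 rose, beside 20.3% and 22.0% of all tested genes, which is the background for each list as well. Their median log2 fold change was 0.053. Of 9 genes for proteins that supply electrons to the sterol enzymes or assist them, 7 fell and 1 rose. Erg28, a scaffold of the carbon-4 demethylating enzymes, had a log2 fold change of −0.86 and Sec14l2, which stimulates squalene epoxidation, of −0.77, whereas Pgrmc2, a haem-binding membrane protein, rose by 0.32 with overlapping groups. Pgrmc2 did not pass within numbers 4 to 6 (0.16, adjusted p = 0.169, against 0.45 within numbers 1 to 3). Of 10 genes on isoprenoid branches, 3 fell. Dhdds, which makes the dolichol chain used in protein glycosylation, fell from 1309 ± 64.9 to 713 ± 21.1 normalized counts (log2 fold change −0.88, adjusted p = 1.65e-09, edgeR). Pdss1, which makes the side chain of coenzyme Q, fell by 0.49, a call that was made in neither number set alone (adjusted p = 0.131 and 0.102).

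Of 12 genes of SREBP processing and sterol-dependent degradation, 2 fell and 4 rose. Rnf145, a ubiquitin ligase, and Usp20, a deubiquitinase, fell by 0.88 and 0.73 on the log2 scale. Paqr3, which tethers SCAP and SREBP to the Golgi, rose from 44.9 ± 8.74 to 235 ± 33.1 normalized counts (log2 fold change 2.39, adjusted p = 1.49e-09, edgeR). Erlin1, which restrains SREBP in the endoplasmic reticulum, rose by 1.32 (0.93 within numbers 1 to 3 and 1.57 within numbers 4 to 6).

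Of 14 tested lipoprotein receptor and transport genes, 2 fell and 6 rose, among them Vldlr and Stard5. Vldlr, the very low density lipoprotein receptor, rose from 102 ± 9.13 to 852 ± 72.0 normalized counts (log2 fold change 3.06, standard error 0.082, adjusted p = 3.52e-13, edgeR). Stard5, a sterol carrier of the same domain family as Stard4, rose from 77.7 ± 8.91 to 607 ± 46.6 (log2 fold change 2.96, standard error 0.090, adjusted p = 1.12e-12, edgeR), opposite to Stard4. Lrp8, a receptor of the same family as Vldlr, fell by 0.56 on the log2 scale (adjusted p = 0.00243, edgeR) with overlapping groups. It did not pass within numbers 1 to 3 (−0.33, adjusted p = 0.130, against −0.84 within numbers 4 to 6). Of 8 tested oxysterol and LXR genes, 2 fell, both LXR targets, namely Lpcat3 (−0.84) and Arl4c (−0.82). Smpdl3a (0.94), also an LXR target, and the LXR partner gene Rxrb (0.63) rose. The groups of Smpdl3a overlapped, and it did not pass within numbers 1 to 3 (0.55, adjusted p = 0.083, against 1.221 within numbers 4 to 6).

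**Figure D5:**
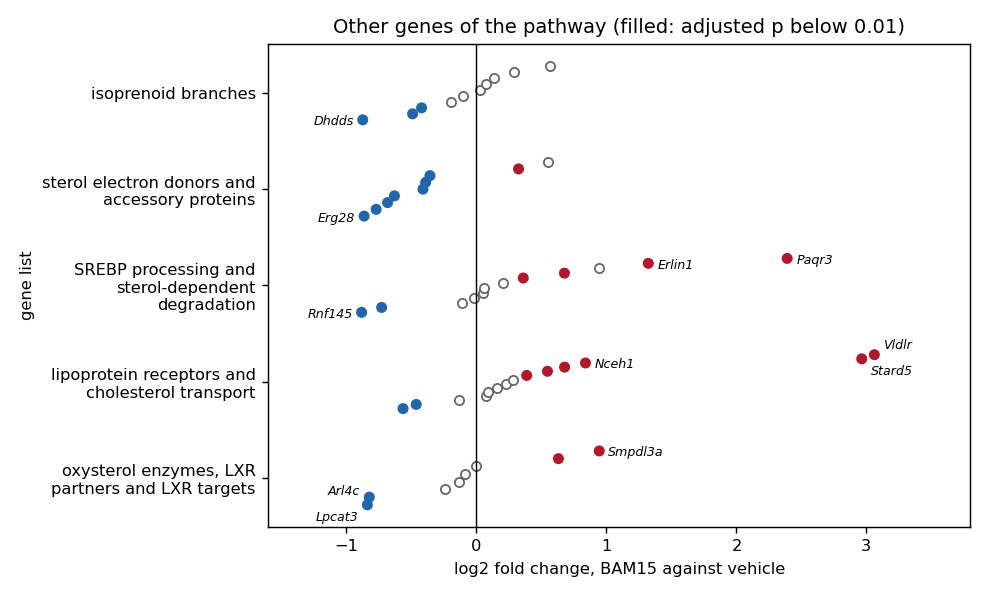
Log2 fold change (x axis, BAM15 against vehicle) of the 53 tested genes of 5 further lists, 1 band of points per list (staggered by value), with filled points for an adjusted p-value below 0.01. Vldlr at 3.06 and Stard5 at 2.96 lie farthest to the right, and the points of the electron donor list lie mostly to the left.

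Reads near the 3′ end of 5 of the 31 genes could also belong to another gene, and the strand used in counting is not given in the sources used here. Of the last 400 bases of the longest coding transcript, exons on the opposite strand cover all 400 for Fdft1 (Ctsb), 192 for Npc1 (Rmc1), 166 for Cyp51 (Akap9) and 105 for Lss (4930483K19Rik). The tested neighbours did not pass. Log2 values of BAM15 against vehicle differed for Ctsb by 0.21 (adjusted p = 0.0169), for Akap9 by 0.13 (adjusted p = 0.314) and for Rmc1, at 62.9 normalized counts, by 0.61 (adjusted p = 0.389, edgeR), whereas 4930483K19Rik was not analysed here. For Fdps, 73.2% of the 50-base windows in these 400 bases also occur in other genes, chiefly the copy Gm3571 (2.91 normalized counts on average) and Gm43738, so its value is uncertain. The other 26 genes had no such shared stretch.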

How the data were processed

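RNA of 12 C2C12 myotube libraries, 6 per condition, was sequenced from the 3′ end. Per the study's methods, the authors aligned and counted forward reads with BlueBee software, and the deposited counts are whole reads per Ensembl gene without normalization. The submitters' processing notes name GRCm38 and DESeq2 1.22.2, whereas the aligner, annotation and strand are not given in the sources used here. A second deposited table holds the authors' normalized signal, in which each library was divided by its own size factor, and it supplied gene symbols. The tables also hold 11 columns of other samples, not used here.

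Counts were analysed in R 4.3.3 with edgeR 4.0.16 (filterByExpr, TMM, robust quasi-likelihood fit with condition as the only term). Of 15113 genes, 2383 were removed by the filter, and p-values were Benjamini-Hochberg adjusted over the other 12730. The thresholds (an adjusted p-value below 0.01 and, for the further criteria, a change exceeding 2-fold at a mean normalized count over 50) follow the study's methods. Standard errors are the log2 fold change divided by the square root of F. Total counts ranged from 13983725 to 18866728. No 2 libraries were copies, since the chi-square per gene was at least 4.75 for each pair of a condition. Positions and 3′ windows came from GENCODE M21 (GRCm38), promoters from RefSeq (GRCm38.p6). On simulated data with 200 genes changed by 2.83-fold, the edgeR test recovered 198 and called 2 others among 12620 tested. Smaller changes, and changes in genes with few counts, were not simulated.

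The 31 genes, and the further lists, were chosen with earlier results of these data known. All 31 are named, and of each further list at most 2 genes in each direction, those with the largest change among genes past an adjusted p-value of 0.01, besides markers. Some genes of the pathway are not reported here. Alternatives were DESeq2 1.42.0, limma-voom (limma 3.58.1), other scalings and filters, no robust moderation, a replicate block, a block for numbers 1 to 3 and 4 to 6, each number set alone, each library left out, and other thresholds. Figures were drawn with matplotlib 3.10.9.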

Additional observations from a re-analysis of the deposited data

Results flagged for a closer look

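In 62 groups of 6 libraries (31 genes in each condition), 4 libraries lay far from the others of their condition by Dixon's ratio, the gap to the nearest library divided by the range. Chance flags about 1 in 20 groups. Hsd17b7 had 345 normalized counts in BAM15 library 4 against 299.98 in the next highest (ratio 0.753). Fdft1 had 636 in BAM15 library 6 against 533 (ratio 0.666). Mylip had 180.3 in BAM15 library 5 against 144 (ratio 0.644). Sqle had 2123 in vehicle library 5 against 1972 (ratio 0.643). Each of these 4 genes also passed without the library named.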

How the results depend on the processing

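Counts of genes that passed in each direction stayed within 1.5 times the reported ones under all alternatives with 1 exception, a threshold of 1.5-fold in place of 2-fold, with which 20 in place of 11 of the 31 genes passed all criteria as lower. The median log2 fold change of the 31 genes was −0.81 with all libraries, −0.87 with scaling by library size only, −0.88 within numbers 4 to 6, and −0.84 to −0.78 when each library was left out in turn. With a replicate block for the library number, 22 genes fell and 3 rose, 18 of them enzymes that fell, and the median was −0.81. Whether library numbers pair the samples could not be decided, since 6 numbers are few and the labels do not say. Deviations of same-numbered libraries correlated by −0.0689 to 0.278, over 0.1 for 4 of 6 numbers. Of the 6 BAM15 libraries, 2 correlated best with their own number. Only Npc2 and Abcg1 changed sign, and neither passed under any alternative run. The log2 fold change of Npc2 was 0.0756 within numbers 1 to 3, and between −0.0595 and 0.0186 with 1 library left out. The log2 fold change of Abcg1 was −0.0168 with upper-quartile scaling, −0.0543 with library size only, −0.00526 with DESeq2, −0.004997 without a filter and −0.00143 with a block for the number sets, and between −0.18 and 0.14 with 1 library left out. Of the 31 genes, Idi1 and Soat1 lost their call, each only within 1 number set, as given above, where fewer libraries were tested. Idi1 and Abcg1 gave no value when 10 counts were required in every library, and Abcg1 none within numbers 1 to 3, for lack of counts. Depth limits the result for Abcg1, Idi1 and Abca1.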

Other observations

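Ch25h, which encodes the enzyme that makes 25-hydroxycholesterol, a ligand of LXR and an inhibitor of SREBP processing, was removed by the filter on low counts when all libraries were used and is named here after its values were seen. It had 0.956 to 5.42 normalized counts in the vehicle libraries. The BAM15 libraries numbered 1 to 6 had 22.3, 8.64, 8.46, 41.7, 243 and 75.9. All 6 lay above the vehicle range but differed widely among themselves. Within numbers 4 to 6 it had enough counts to be tested only through the BAM15 libraries, so no test of it is given and no conclusion is drawn. A link of Ch25h to the cholesterol genes was not tested.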
